A study of Mus musculus with 4 samples.

Results

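Replacement histone variant genes encode histones that can enter chromatin outside S phase, and 10 of them were followed here: H3f3a and H3f3b (H3.3), H2afz and H2afv (H2A.Z), H2afy and H2afy2 (macroH2A), H2afx (H2AX), H2afj (H2A.J), H1f0 and H1fx (linker histones). They were found by gene name in the count table, which holds 55421 genes, and all 10 were present and passed the filter on low counts. RNA-seq measured their transcripts in primary cultures of mouse spermatogonia (SSC cultures) of the CD1 strain, started from testes of young pups. Veh cultures were kept in complete SSC medium. In the NRRA cultures most of that medium was replaced by Earle's balanced salt solution, with retinoic acid (RA) added. The general protocol for these cultures lasted 2 days, and the labels state no duration for these libraries. The labels list N2, bFGF and GDNF in the culture of both groups. Each group had 2 libraries, numbered as replicates 1 and 2, and the study's methods describe its sequencing replicates as independent biological replicates.

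Some properties of the cultures limit what the comparison can show. The cells grew on irradiated mouse embryonic fibroblasts (MEF feeder cells) from outbred CF1 mice, so that every library holds RNA of both cell types. Dilution of the medium, which also lowers its growth factors, and RA were always applied together and cannot be told apart. In such bulk samples, fewer cells of a type and less RNA per cell cannot be told apart either.

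Most histone proteins are made in S phase from clustered genes whose transcripts end in a stem-loop and have no poly(A) tail. Replacement variants come from single genes outside those clusters, mostly with polyadenylated transcripts, and dedicated chaperones or remodellers place them in chromatin. In the male germ line, H3.3 and H2AX are known for their parts in meiotic sex chromosome silencing, and H2AX is phosphorylated at the DNA breaks of meiotic recombination. MacroH2A carries a large globular domain beside its histone fold and is associated with repressed chromatin. H2A.Z marks many promoters and enhancers.

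Total counts lay between 28022265 and 31604769 per library, and a count of 3, the lowest level considered, corresponded to between 0.0921 and 0.111 CPM, the unit of level used here, which is a count relative to the TMM-scaled total of its library. The common biological coefficient of variation was 2.61%. Replicates differed from each other by more than sampling noise in both groups. The labelled cell type was checked with 5 germ cell markers, whose summed level was between 1585.2 and 1661.3 CPM in Veh and between 1688.5 and 1690.4 CPM in NRRA. RNA of fibroblasts was present as well, with a summed level of 15 feeder markers between 9135.2 and 9223.5 CPM in Veh and between 7172.2 and 7331.2 CPM in NRRA. Fn1, which encodes the matrix protein fibronectin, made up most of this sum, with 6143.1 and 6086.6 CPM in Veh and 4361.9 and 4351.7 CPM in NRRA, and the other 14 markers summed to 3080.4 and 3048.6 CPM in Veh and to 2969.2 and 2820.5 CPM in NRRA. Gonadal somatic markers were detected at low levels, and the list of 8 summed to 42.6 and 46.7 CPM in Veh and to 25.5 and 26.4 CPM in NRRA. Sox9, a Sertoli cell factor, made up most of this in Veh, with 735 and 874 counts, and had 304 and 284 counts in NRRA. Wt1 had between 178 and 233 counts and Star between 189 and 286, while Amh had at most 3 counts and Hsd3b1 at most 1 in any library.

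The H3.3 genes and the H2A.Z genes encode nearly the same protein from different DNA. The start of each coding sequence is shown because such differences help to assign reads to one gene of a pair. Coding bases are 408 of the 2841 bases of the principal transcript in H3f3a and 384 of 1633 in H2afv, so most of the transcript lies outside them. The sequences are from GENCODE transcripts (GRCm38), and capitals mark bases that differ within the pair. In each pair 13 of the first 60 coding bases differ, while 20 of 20 codons encode the same residue in H3.3 and 19 of 20 in H2A.Z.
H3f3a: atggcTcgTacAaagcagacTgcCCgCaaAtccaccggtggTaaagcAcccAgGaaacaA
H3f3b: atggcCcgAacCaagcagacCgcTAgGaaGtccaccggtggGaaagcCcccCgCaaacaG
H2afz: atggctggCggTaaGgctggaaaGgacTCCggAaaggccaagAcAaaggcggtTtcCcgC
H2afv: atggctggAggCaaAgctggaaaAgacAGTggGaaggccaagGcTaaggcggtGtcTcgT

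Over the whole coding sequence H3f3a and H3f3b share 313 of 408 bases (76.7%) and encode an identical protein of 136 residues. H2afz and H2afv share 304 of 384 coding bases (79.2%), and their proteins differ at 3 of 128 residues. The macroH2A proteins are less alike, with 257 identical residues over 384 alignment columns (66.9%). The linker histone pair is the least alike of these pairs, with 28.4% identity. Among the 6 members of the H2A type, H2afx is the 1 that ends in the residues Ser-Gln-Glu-Tyr, the tail whose serine is phosphorylated at DNA breaks. The last 30 coding bases of H2afx before the stop codon are shown with the codons of that tail in capitals.
H2afx: aagaaggcctcgcaggccTCTCAGGAGTAC

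All 10 genes changed between NRRA and Veh: 3 were higher in NRRA (H1fx, H2afx and H2afv) and 7 were lower (edgeR quasi-likelihood F test, Benjamini-Hochberg adjusted p under 0.05 over all 20232 genes tested). This count has to be read against the whole transcriptome, in which 56.4% of tested genes were called, 27.9% as higher and 28.4% as lower. In none of the 10 genes did the libraries of the groups overlap, which was also so in 76.7% of all tested genes. The sizes were small for most: the median absolute log2 fold change was 0.27 for the variant genes and 0.33 for all tested genes, and H2afy2 was the 1 variant gene that changed at least 2-fold, as did 13.3% of all tested genes. The summed level of the 10 genes was 1260.1 and 1274.7 CPM in the Veh libraries and 1078.5 and 1078.4 CPM in the NRRA libraries. Without H2afy2 it was 1151.2 and 1174.0 CPM in Veh and 1056.5 and 1055.9 CPM in NRRA.

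The fibroblast feeder markers moved in the same comparison, in which 28.4% of all tested genes were called lower and 27.9% higher. Of 15 markers, 12 were lower and 2 higher in NRRA, with Lum, a matrix proteoglycan, lowest at a log2 fold change of -1.43 and Pdgfra, a growth factor receptor, highest at 0.98. The other higher marker was Col3a1 (0.61), with 241.9 and 246.0 CPM in Veh and 390.0 and 356.8 CPM in NRRA, and Postn was not called. The count of lower markers was 9 under DESeq2, with scaling by library size alone and without NRRA replicate 2, and in each of these settings Col1a1, S100a4 and Dcn were not called. The part of the feeder cells in the changes of the variant genes was not tested. Of 5 germ cell markers, Piwil2 (0.20) and Dazl (0.16) were higher, Tdrd1 (-0.45) and Mael (-0.14) were lower, and Ddx4 had a log2 fold change of 0.02 that was not called. In the gonadal somatic list Sox9 was lower (-1.59) and Star higher (0.31), and leaving out any of the 4 libraries ended the call of Star. DESeq2 called neither Star nor Dazl, and Dazl was not called with a filter at 1 CPM either. Scaling by library size alone ended the call of Mael and called Ddx4 higher (0.11), which made 3 germ cell markers higher. Gata4 had the highest value of that list (0.48) and was not called, nor were Wt1, Dhh and Cyp17a1. Without Veh replicate 1, Wt1 was also called lower (-0.40), and without NRRA replicate 2, Dhh was (-1.13).

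**Figure D1:**
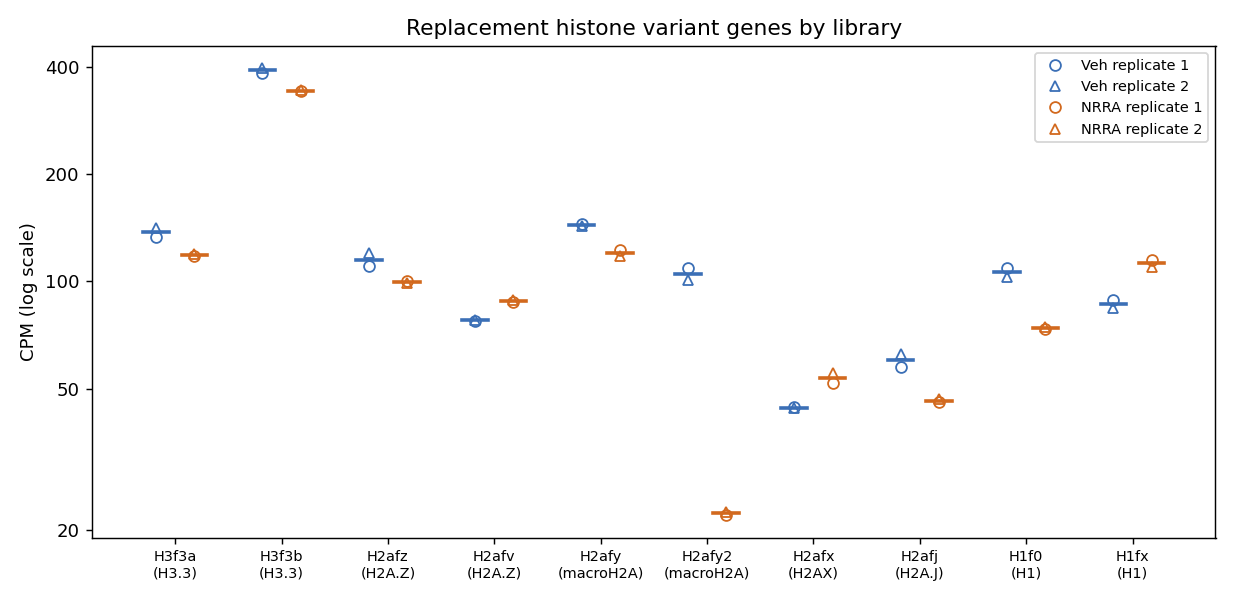
Level of each variant gene (CPM, log scale) in the 4 libraries, with Veh in blue, NRRA in orange, circles for replicate 1, triangles for replicate 2 and bars for the group means. H2afy2 fell from between 100.7 and 108.9 CPM in Veh to between 22.0 and 22.5 CPM in NRRA, and the groups did not overlap in any of the 10 genes, as in 76.7% of all tested genes.

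**Figure D2:**
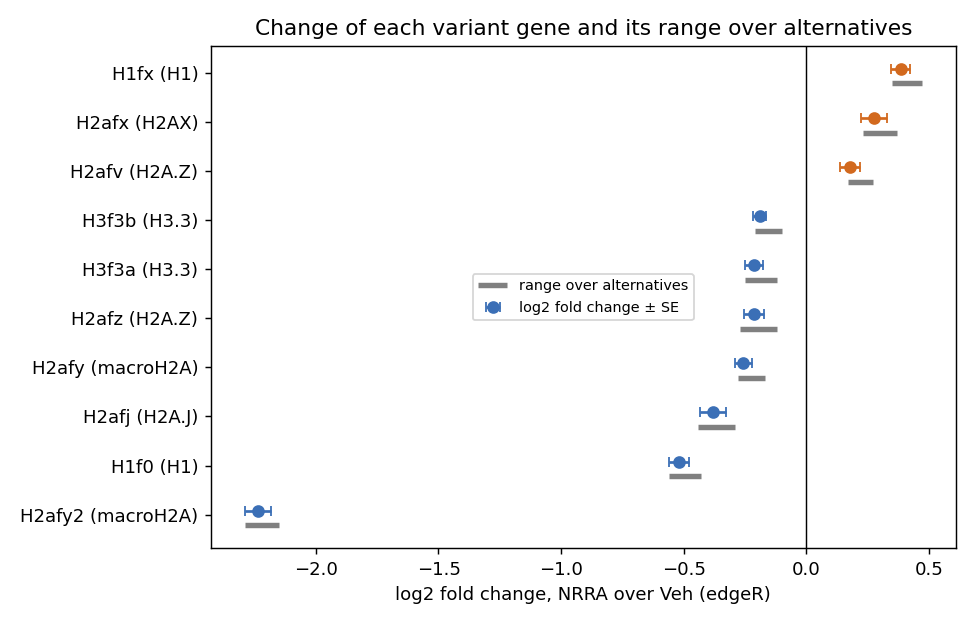
Log2 fold change of each variant gene, NRRA over Veh, from edgeR (points with SE), with the range over 12 alternative analyses as grey bars. The 3 genes above 0 and the 7 below 0 stayed on their side of 0 in every alternative, and H2afy2 ranged from -2.29 to -2.15.

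The macroH2A pair held the largest change. H2afy2, which encodes macroH2A2 (ENSMUSG00000020086, chr10:61738665-61784147, minus strand), had 108.9 and 100.7 CPM in the Veh libraries and 22.0 and 22.5 CPM in the NRRA libraries. The Veh mean was 104.8 ± 5.82 CPM and the NRRA mean 22.3 ± 0.289 CPM (SD, n = 2). On the log2 scale H2afy2 fell by 2.24 (SE 0.0539, edgeR adjusted p = 5.08e-22). Both NRRA libraries were low, at about the same level, and 3.4% of tested genes had a larger absolute change. H2afy, which encodes macroH2A1 (ENSMUSG00000015937, chr13:56073619-56136361, minus strand), had 144.6 and 142.9 CPM in Veh and 122.4 and 118.2 CPM in NRRA. Its log2 fold change was -0.26 (SE 0.0346, edgeR adjusted p = 4.83e-07), so both genes of the pair were lower in NRRA by unequal amounts. With scaling by library size alone the value of H2afy was -0.17 and stayed called. The summed level of the pair was 253.5 and 243.6 CPM in Veh and 144.4 and 140.6 CPM in NRRA.

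Other genes touch the macroH2A2 gene in the annotation. Aifm2, on the opposite strand, overlaps 10.7% of its exonic bases and had 1244 and 1391 counts in Veh and 1934 and 1835 counts in NRRA, so it moved the other way. The processed pseudogene H2afy3 is at least 95% identical to 51.4% of the H2afy2 transcript, and it had 13 and 5 counts in Veh and 3 and 14 counts in NRRA against 2954 and 2996, and 718 and 676, for H2afy2. The antisense gene Gm47071 overlaps 7.4% of the exonic bases of H2afy and was counted 810 and 880 times in Veh, and 792 and 720 times in NRRA, against 3921 and 4251, and 3985 and 3557, for H2afy. The strand setting of the authors' counting was not given in the sources used here, so reads of overlapping genes may have been assigned to either.

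H2AX and H2A.J, both close to canonical H2A in sequence, moved in opposite directions. H2afx, the DNA break variant (ENSMUSG00000049932, chr9:44334694-44336077, plus strand, a single exon), had 44.3 and 44.2 CPM in Veh and 51.9 and 55.3 CPM in NRRA. It rose by 0.28 on the log2 scale (SE 0.0533, edgeR adjusted p = 7.61e-05), from 44.2 ± 0.0849 to 53.6 ± 2.42 CPM (SD, n = 2). H2afx transcripts are known to occur with a stem-loop end as well as with a poly(A) tail, and poly(A) capture would take up the latter form only. H2afj (ENSMUSG00000060032, chr6:136808244-136810074, plus strand, a single exon) had 57.6 and 62.6 CPM in Veh and 45.7 and 46.7 CPM in NRRA. Its log2 fold change was -0.38 (SE 0.0528, edgeR adjusted p = 7.55e-07). The annotation places Gm44364 on the opposite strand within 7.7% of the H2afj exon, and its counts, 893 and 1088 for Veh, 923 and 823 for NRRA, stood beside 1561 and 1862, and 1488 and 1406, for H2afj. Gm44335 lies likewise within 10.2% of the H2afx exon, with counts of 178 and 210 for Veh, 260 and 241 for NRRA, against 1201 and 1314, and 1690 and 1665. How reads were divided between these genes was not tested. Per kilobase of exon the libraries of H2afj and H2afx overlapped in Veh, and H2afj was below H2afx in both NRRA libraries.

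The H2A.Z genes also moved in opposite directions, so that their sum hardly moved. H2afz (ENSMUSG00000037894, chr3:137864487-137866922, plus strand) had 110.2 and 120.2 CPM in Veh and 100.3 and 98.7 CPM in NRRA, and fell by 0.21 on the log2 scale (SE 0.0408, edgeR adjusted p = 7.2e-05). H2afv (ENSMUSG00000041126, chr11:6427229-6444443, minus strand) had 77.6 and 78.0 CPM in Veh and 87.6 and 88.7 CPM in NRRA, and rose by 0.18 on the log2 scale (SE 0.0407, edgeR adjusted p = 0.000489). The pair summed to 187.8 and 198.2 CPM in Veh and to 187.9 and 187.3 CPM in NRRA, and these ranges overlap. Scaling by library size alone brought the log2 fold changes to -0.12 for H2afz and 0.27 for H2afv, and both stayed called. For H2afz, 90.1% of the transcript has a near-identical stretch (at least 95% over at least 100 bases) in another annotated gene, 63.8% of it in Tmcc1, which encodes an endoplasmic reticulum membrane protein. Tmcc1 had 2288 and 2614 counts in Veh and 3392 and 3175 counts in NRRA, against 2989 and 3577, and 3266 and 2971, for H2afz. How the authors' counting divided reads between these genes was not tested, so the H2afz values are uncertain, whereas H2afv has no near-identical stretch elsewhere in the annotation.

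The promoters of the H2A.Z genes are shown because these genes moved in opposite directions. Each is the 250 bases before the RefSeq start (GRCm38.p6), H2afz at chr3:137864237-137864486 on the plus strand and H2afv at chr11:6444444-6444693 on the minus strand, written 5′ to 3′ in the direction of the gene. Capitals mark CCAAT, the box bound by NF-Y, on either strand, where the reverse strand reads ATTGG.
H2afz: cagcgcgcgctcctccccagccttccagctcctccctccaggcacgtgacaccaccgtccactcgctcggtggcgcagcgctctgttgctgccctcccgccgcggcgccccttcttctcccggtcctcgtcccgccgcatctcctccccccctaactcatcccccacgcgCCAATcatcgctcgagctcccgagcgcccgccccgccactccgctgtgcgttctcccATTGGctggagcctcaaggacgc
H2afv: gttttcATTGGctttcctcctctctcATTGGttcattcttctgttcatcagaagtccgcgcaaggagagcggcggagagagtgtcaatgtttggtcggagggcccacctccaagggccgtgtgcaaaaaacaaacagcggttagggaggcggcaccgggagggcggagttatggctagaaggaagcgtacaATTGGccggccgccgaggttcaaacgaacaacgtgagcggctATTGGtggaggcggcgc

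CCAAT occurred 2 times in the H2afz window and 4 times in the H2afv window. RefSeq promoters were matched for 9 variant genes, all except H2afx. CCAAT on either strand was present in 5 of these 9 windows, against 34.5% of all 27025 promoter windows of the same length. GGGCGG, the core of the GC box, was present in 6 of 9, against 32.9% of all windows. The GC content of the 9 windows ran from 51.6% in H2afj and 54.0% in H3f3b to 77.2% in H3f3a and was above the median of all windows, 52.0%, in all of them but H2afj, so the share of all windows is not matched for composition. TATAAA was present in 1 of 9, that of H3f3b, against 13.0%. CNCCTCAG, searched as a motif reported for the meiotic factor STRA8, was present in 1 of 9, that of H1fx, against 6.4%. In 6 of the 9 windows some bases lie in exons that GENCODE gives to the same gene: all 250 in H2afy2, 214 in H3f3b, 155 in H1fx, 99 in H3f3a, 81 in H2afy and 4 in H2afj, and the H1f0 start was not found among its GENCODE transcripts. Those windows are therefore not purely upstream sequence, and the matches describe letters in a window that were not compared with binding data.

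Both H3.3 genes were lower in NRRA, by similar amounts. H3f3b (ENSMUSG00000016559, chr11:116021912-116027962, minus strand), the most abundant of the 10 genes, had 386.1 and 397.3 CPM in Veh and 342.1 and 344.5 CPM in NRRA. Its log2 fold change was -0.19 (SE 0.0259, edgeR adjusted p = 5.57e-07). H3f3a (ENSMUSG00000060743, chr1:180800832-180813943, minus strand) had 133.2 and 141.5 CPM in Veh and 118.1 and 119.3 CPM in NRRA, and fell by 0.21 on the log2 scale (SE 0.0364, edgeR adjusted p = 1.77e-05). The pair summed to 519.3 and 538.8 CPM in Veh and to 460.2 and 463.8 CPM in NRRA, so that NRRA held 87.3% of the Veh level. Scaling by library size alone brought the log2 fold changes to -0.10 for H3f3b and -0.12 for H3f3a, and both stayed called. H3f3a has 17 near-identical pseudogenes in the annotation, whose counts together were between 3.23% and 3.74% of those of H3f3a in each library, and 22.8% of its exonic bases overlap genes on the opposite strand.

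The linker histone genes moved in opposite directions. H1f0, which encodes H1.0, known to accumulate in differentiated and non-dividing cells (ENSMUSG00000096210, chr15:79028450-79030504, plus strand, a single exon), had 109.2 and 103.2 CPM in Veh and 73.4 and 74.7 CPM in NRRA. It fell by 0.52 on the log2 scale (SE 0.0412, edgeR adjusted p = 3.28e-11), the next largest change after H2afy2. H1fx, which encodes H1X (ENSMUSG00000044927, chr6:87980421-87981637, minus strand, a single exon), had 88.5 and 84.2 CPM in Veh and 115.1 and 110.0 CPM in NRRA. Its log2 fold change was 0.38 (SE 0.0402, edgeR adjusted p = 6.26e-09), the largest rise among the variant genes. Per kilobase of exon H1f0 was below H1fx in both groups, at 53.1 and 50.2 against 72.7 and 69.1 CPM per kilobase in Veh and at 35.7 and 36.3 against 94.6 and 90.4 in NRRA. The sum of the pair was 197.6 and 187.4 CPM in Veh and 188.5 and 184.7 CPM in NRRA, with overlapping ranges. The antisense gene Gm5577 overlaps 17.5% of the exonic bases of H1fx and had 1855 and 2006 counts in Veh and 2405 and 2093 counts in NRRA, so reads of H1fx and Gm5577 may not be fully separated. Gm49544 overlaps 7.9% of the exonic bases of H1f0 in the same way and was counted 301 and 278 times in Veh, and 259 and 239 times in NRRA.

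The balance within each pair was compared on a scale of CPM per kilobase of exon, which allows levels of different genes to be set side by side. H3f3b made up 77.3% and 76.8% of the H3.3 pair in Veh and 77.3% in both NRRA libraries, so the balance of that pair overlapped between the groups, and the sign of its small difference, 0.246 percentage points, turned to -0.0366 without Veh replicate 2. H2afz made up 56.6% and 58.6% of the H2A.Z pair in Veh and 51.3% and 50.6% in NRRA. H1f0 made up 42.2% and 42.1% of the linker pair in Veh and 27.4% and 28.7% in NRRA. The macroH2A pair turned over: H2afy made up 29.8% and 31.2% of it in Veh and 63.9% and 62.7% in NRRA, a difference of 32.8 percentage points. In the H2A.Z, linker and macroH2A pairs the groups did not overlap, and the exact two-sided permutation p was 0.333, the smallest that 2 libraries against 2 can give, so no share could pass that test. In raw counts H2afy was already the larger part of the macroH2A pair in Veh, at 57.0% and 58.7%, and reached 84.7% and 84.0% in NRRA. Which gene of the pair led in Veh therefore depended on the length used. A length is the same in all libraries, so changing it could not turn the rise of the H2afy share into a fall. The size of that rise did depend on it, at 32.8 percentage points per kilobase of exon, 26.5 by raw counts and 25.8 by the principal transcript.

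**Figure D3:**
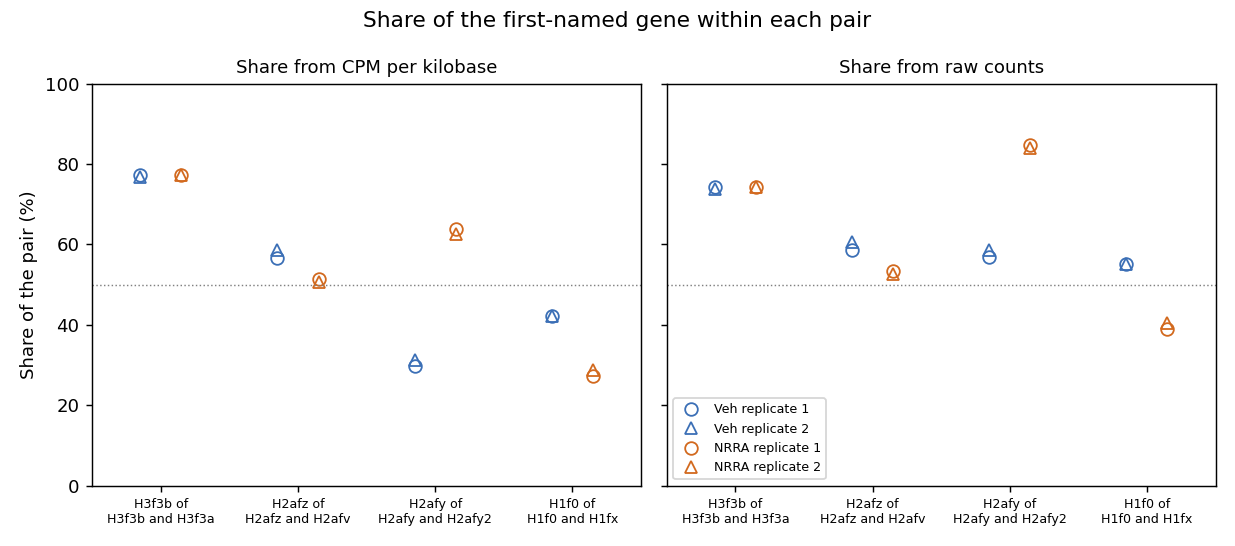
Share (%) of the first-named gene within each pair of variant genes in the 4 libraries, from CPM per kilobase of exon (left) and from raw counts (right), with a dotted line at equal shares. The H3f3b share stayed between 76.8% and 77.3% in the left panel, and the H2afy share rose from between 29.8% and 31.2% in Veh to between 62.7% and 63.9% in NRRA.

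The order of levels per kilobase of exon was led by H3f3b in both groups. In Veh the means ran from 131.6 CPM per kilobase for H3f3b through 70.9 for H1fx, 64.9 for H2afz, 51.7 for H1f0, 48.2 for H2afy2, 47.6 for H2afv, 39.2 for H3f3a, 32.8 for H2afj and 32.0 for H2afx to 21.1 for H2afy. The libraries of H2afy2 and H2afv overlapped, as did those of H2afj and H2afx, so neither neighbour can be placed above the other. In NRRA the order was H3f3b at 115.4 CPM per kilobase, H1fx at 92.5, H2afz at 56.0, H2afv at 54.0, H2afx at 38.7, H1f0 at 36.0, H3f3a at 33.9, H2afj at 25.2, H2afy at 17.7 and H2afy2 at 10.2, and no neighbours overlapped. H2afy2 thus went from the middle of the order to its end. Some places rest on the length used. By the principal transcript H3f3b still led. H2afz came next in Veh, with 107.8 against 70.9 CPM per kilobase for H1fx, while in NRRA its mean of 93.1 lay inside the range of the H1fx libraries (90.4 to 94.6) and neither can be placed above the other. H2afy, whose exons cover 6809 bases in all but 2046 in that transcript, was at 70.2 in Veh and 58.8 in NRRA.

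Factors that place or remove these variants were read from lists beside them. Over all tested genes 27.9% were called higher and 28.4% lower, which are the shares to set beside each list. Of 9 H3.3 deposition factors, Ubn1 (log2 fold change 0.21), a subunit of the HIRA complex, and the chaperone Asf1b (0.12) were higher in NRRA. The chaperone Asf1a (-0.56) and the remodeller Atrx (-0.17) were lower, and Hira, Ubn2, Cabin1, Daxx and Nasp were not called, with a list median of -0.02. Asf1a had 32.2 and 31.3 CPM in Veh and 21.2 and 22.0 CPM in NRRA, while Asf1b lost its call without NRRA replicate 1, which left 1 factor higher, and under DESeq2. Without Veh replicate 2, Hira was called lower (-0.28). With scaling by library size alone, Cabin1 (0.10), Daxx (0.19) and Nasp (0.07) were called higher too, which made 5 factors higher.

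Of 14 H2A.Z exchange factors, 4 were higher in NRRA: the acetyltransferase Kat5 (0.40), the remodeller Srcap (0.24), Brd8 (0.17) and Yeats4 (0.15). The 6 that were lower included Anp32e (-0.89), the chaperone that removes H2A.Z, and the ATPases Ruvbl1 (-0.57) and Ruvbl2 (-0.50). Anp32e had 73.7 and 75.4 CPM in Veh and 40.3 and 40.0 CPM in NRRA (edgeR adjusted p = 1.72e-14), and the groups were far apart. Ep400, Actl6a, Actr6 and Dmap1 were not called. The list had members on both sides and its median lay at 0 on the log2 scale to 2 decimals. Yeats4 lost its call without Veh replicate 2. Of the factors called lower, Znhit1 lost its call without Veh replicate 2 or NRRA replicate 1, and Ino80 without NRRA replicate 1. Yeats4, Znhit1 and Ino80 were not called by DESeq2, and Vps72, Znhit1 and Ino80 were not called with scaling by library size alone. That scaling called Ep400 higher (0.14).

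Of 12 genes of H2AX signalling, 5 were higher and 3 lower in NRRA, beside 27.9% and 28.4% of all tested genes. The median of the list was 0.09 on the log2 scale. The higher ones were the ubiquitin ligase Rnf168 (0.38), the H2AX reader Mdc1 (0.26), the phosphatase Eya3 (0.22), the DNA-dependent kinase Prkdc (0.15) and the kinase Baz1b (0.11). The lower ones were Topbp1 (-0.54), an activator of the kinase ATR, Trp53bp1 (-0.28) and the kinase Atm (-0.22). The kinase Atr, the ligase Rnf8, Brca1 and the phosphatase subunit Ppp4c were not called. Scaling by library size alone called Rnf8 (0.3) and Ppp4c (0.17) higher, which made 7 genes higher. Without Veh replicate 1 Ppp4c was called higher (0.14), and without Veh replicate 2 Brca1 was called lower (-0.09).

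General histone chaperones were mostly lower. Of 6, Set (-0.81), Ssrp1 (-0.34), Nap1l1 (-0.25), Nap1l4 (-0.23) and Npm1 (-0.22) fell, and Supt16, the partner of Ssrp1 in the FACT complex, was higher (0.08), a call that was lost without NRRA replicate 2. Set had 365.0 and 353.4 CPM in Veh and 206.8 and 202.5 CPM in NRRA. The median of the list was -0.24 beside -0.21 for the variant genes, and both can be set against the median of all tested genes, which lay at 0.000289. The feeder markers had a median of -0.20, and the part of the feeder cells in these medians was not tested.

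Most other histone variants listed had counts at or near 0. Of 10 germline and centromere variants, 2 passed the filter on low counts. Cenpa, the centromeric H3 variant, had 71.2 and 73.0 CPM in Veh and 79.6 and 80.6 CPM in NRRA (log2 fold change 0.15, SE 0.0425, edgeR adjusted p = 0.00353). H1foo, the oocyte linker histone, had 42 and 22 counts in Veh and 21 in both NRRA libraries, was not called (edgeR adjusted p = 0.109), and was called lower when Veh replicate 2 was left out (-1.20). The testis variants Hist1h2aa, Hist1h2ba, Hist1h1t, H1fnt and Hils1 and the 3 H2afb genes had at most 8 counts in any library. Oligo-dT capture would miss transcripts without a poly(A) tail, such as those of clustered histone genes. Reads shared by near-identical copies may also have gone uncounted, so these low counts do not show that the genes were silent.

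Proliferation genes were read beside the variants because some variants are known to follow the cell cycle. Of 14, Mki67 (0.19) and Ccna2 (0.18) were higher in NRRA and 9 were lower, with Mcm7, a subunit of the replicative helicase, lowest at -0.48. Over all tested genes 27.9% were called higher and 28.4% lower. Top2a, Mcm2 and Cdk1 were not called. Without Veh replicate 2 the count of lower genes was 5. Scaling by library size alone also left 5 lower, with Pcna, Mcm3, Mcm4 and Ccnb1 no longer called, and Mcm2 was then called higher (0.09). DESeq2 left 6 lower and did not call Pcna, Mcm3 and Ccnb1. A filter at 1 CPM and the replicate block each called Cdk1 lower (-0.13). The summed level of the list was between 3685.1 and 3714.3 CPM in Veh and between 3467.0 and 3489.3 CPM in NRRA, and its part in the changes of the variant genes was not tested.

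**Figure D4:**
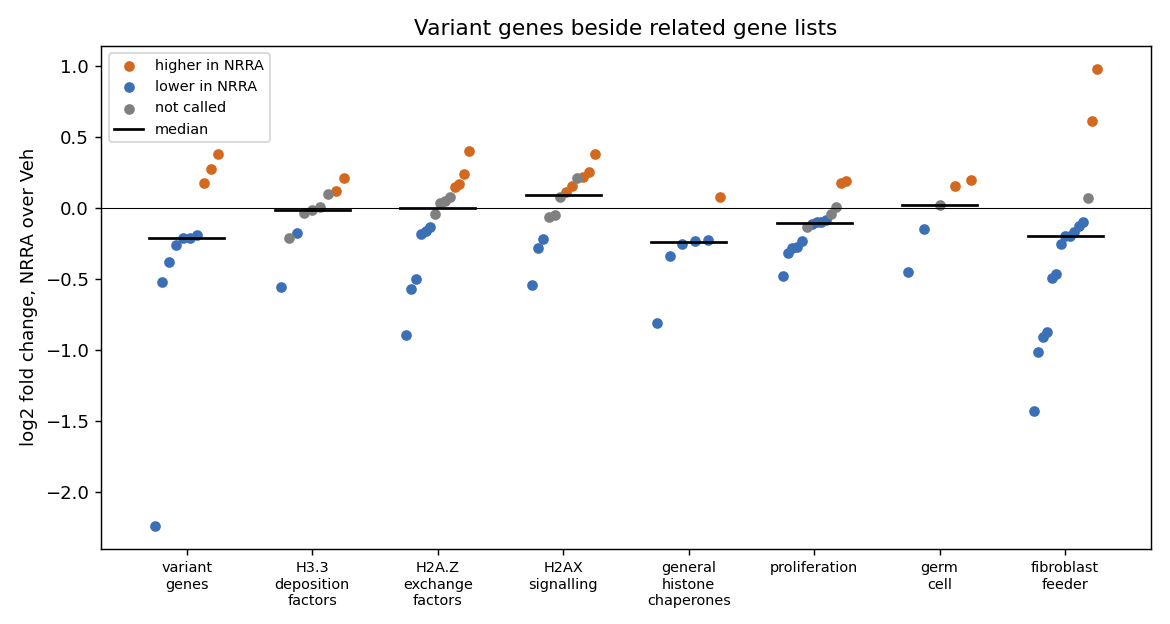
Log2 fold change (NRRA over Veh) of the 10 variant genes and of the genes of 7 lists, coloured by the edgeR call at an adjusted p under 0.05, with bars for the median of each list. The variant genes and the general histone chaperones had medians of -0.21 and -0.24, and H2afy2, at -2.24, lay below every gene of the other lists drawn.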

How the data were processed

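RNA-seq libraries of CD1 SSC cultures, 2 Veh and 2 NRRA, were compared. Groups and replicate numbers came from the sample titles. The column names and descriptions number the Veh libraries 2 and 3 and were matched by the descriptions. The deposited table holds whole-number counts for each gene, which were not normalized. The submitters' processing notes list bcl2fastq, STAR 2.6.1c, featureCounts 1.6.4 and mm10. The annotation release and the strand and multimapping settings were not given in the sources used here. The labels name a TruSeq kit and the study's methods a stranded oligo-dT kit. Reads of overlapping or near-identical genes may therefore be divided in ways that shift single values.

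Counts were tested in R 4.3.3 with edgeR 4.0.16 (filterByExpr, TMM, robust quasi-likelihood F test), with Benjamini-Hochberg adjustment over all genes tested and a threshold of 0.05. The study's methods used DESeq2. Here DESeq2 1.42.0 was an alternative, as were other scalings and filters, no robust estimation, a replicate block, added pseudogene counts and leaving out each library. CPM used TMM-scaled library sizes, and its precision covers counting error only. P-values rest on the spread between these libraries, which the study's methods describe as biological replicates. For each gene that spread was estimated partly from all tested genes, so a p-value does not measure the spread of 1 gene alone. Lengths, overlaps and near-identical stretches came from GENCODE M21 (GRCm38), in which 55154 of 55421 identifiers were found, and from blastn 2.17.0. Coding sequences were aligned with Biopython 1.88. Promoters came from RefSeq. The statistical step was tested on simulated data, with changes of at least 2-fold in few genes and the same spread for all genes. Smaller changes, as in most variant genes, were not simulated.

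The variant genes and all lists were chosen with earlier results of these data known. The rule for named genes was all variant genes, the highest and lowest gene of each list, and each gene where a count was 5 or fewer. Additional genes named beside the results (Tmcc1, Aifm2, H2afy3, Gm5577, Gm44364, Gm44335, Gm47071, Gm49544, Fn1, Amh, Hsd3b1, Col1a1, S100a4, Dcn, Ruvbl1, Ruvbl2, Znhit1, Ino80, Wt1, Dhh and genes whose call changed) were chosen after their values were seen.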

Additional observations from a re-analysis of the deposited data

How the results depend on the processing

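The 10 variant genes were recomputed under 12 alternatives, and all 120 values kept their direction and their call. Scaling by library size alone shifted the median of all tested genes to 0.09 on the log2 scale and the share of higher genes among the calls from 49.6% to 60.3% (6962 higher, 4593 lower). Under it H3f3b moved from -0.19 to -0.10 and H3f3a and H2afz from -0.21 to -0.12, and the largest adjusted p of any variant gene under any alternative, 0.012, was that of H2afz. DESeq2 called 4267 genes higher and 4317 lower. Same-numbered libraries did not deviate together (correlation -0.0106), so the numbers were not taken as pairs, and with the replicate block 3 variant genes were higher and 7 lower, and 5772 and 5836 of all genes.

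Library size scaling gave 5 H3.3 deposition factors higher, 3 H2A.Z exchange factors lower, 5 proliferation genes lower and 1 germ cell gene lower. DESeq2 gave 1 H3.3 deposition factor higher, 6 proliferation genes lower, 1 germ cell gene higher and 0 gonadal somatic genes higher. A filter at 1 CPM also gave 1 germ cell gene higher. By raw counts the H2afy share rose by 26.5 percentage points and the H1f0 share changed by -15.5. By the length of the principal transcript, an alternative chosen after seeing the data, the H2afy share rose by 25.8 points. Leaving out each library in turn gave a difference in the H3f3b share between -0.0366 and 0.529 percentage points, the lowest without Veh replicate 2. It gave between 1 and 2 H3.3 deposition factors higher, between 0 and 1 general chaperones higher, between 0 and 1 germline variants lower, between 5 and 10 proliferation genes lower, 0 gonadal somatic genes higher, and between 1 and 2 gonadal somatic genes lower.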
